A study of Rattus norvegicus and Ovis aries with 113 samples.

Results

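Rat ovary was compared with rat sperm: RNA sequencing libraries of 14 ovaries were set against 15 libraries labelled sperm, so 29 of the 113 samples of the series were used. All samples labelled rat ovary or rat sperm were members, and no measured value was used to choose them. The ovaries came from 14 female and the sperm from 15 male Sprague Dawley rats, an outbred laboratory strain. Per the labels, the males were past puberty, all animals were killed just before collection, no treatment was given, and the material called sperm was harvested as seminal fluid. The labels and design text used here state neither the females' age nor their cycle stage. By the library numbers each library stands for 1 animal, ovary and sperm share no animal, and every ovary came from a female and every sperm sample from a male, so that tissue and sex cannot be told apart. Whole brains of the same 14 females and 15 males were also sequenced and are quoted beside some genes. The title of the series asks for genes that bridge neurological and reproductive functions. The comparison of ovary with sperm asks which genes the female and the male reproductive samples share and where they part.

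The ovary is an organ of many cell types. Follicles hold an oocyte surrounded by granulosa cells, which convert androgens to oestrogens and make inhibins, while theca and luteal cells make androgens and progesterone from cholesterol, all within a vascular stroma. Sperm are stripped-down haploid cells whose histones were replaced by transition proteins and then protamines. Their transcription stops before they leave the testis, so the RNA of ripe sperm is a remnant of spermatid RNA, and fluid collected from the male tract also carries cells and RNA of the epididymis, the vas deferens and blood.

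Sequencing depth was 50.5 to 60.3 M counts (M, 1000000) in ovary and 13.7 to 65.1 M in sperm. Ribosomal RNA entries, left out of all totals, took 8.20% to 14.6% of counts in ovary and 2.04% to 32.7% in sperm. Levels are counts per 1000000 (CPM), scaled by the trimmed mean of M-values (TMM), and they compare a gene between samples but not 2 genes of unequal length. 3 sperm libraries stood apart in their low counts: libraries 7, 16 and 17 held 215, 196 and 161 genes with exactly 1 count, against 1036 to 2005 in the other 12 sperm libraries and 1673 to 1858 in ovary. Library 17 was also the shallowest. In bulk tissue, fewer cells of a type and less RNA per cell cannot be told apart.

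The label sperm was checked against genes of ripe sperm and of other cells of the male tract. RNA of the sperm nucleus and tail was present in every sperm library, but at very different levels. Prm1, the protamine that packs sperm DNA, reached 5902 CPM in library 7, 4793 in library 14, 2819 in library 3, 692 in library 13 and 665 in library 10. It lay between 11.2 and 182 CPM in the other 10 libraries. Over the 9 sperm nucleus genes in the table, the mean of log2(CPM + 1) ran from 0.86 in library 6 through a median of 3.16 to 8.37 in library 14. The entries with the largest means in sperm were instead Serpina1f, Serpina16, Cbr1l2, Aqp2, Cbr1l1, Hba-a1, Ces5a, Clu and Cbr1, which include genes best known from male tract epithelium and a haemoglobin gene, beside 1 placeholder, LOC120102105, that overlaps a ribosomal RNA entry. The samples are called sperm here because the labels do. Their results describe sperm together with the other cells and RNA of the fluid.

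**Figure D1:**
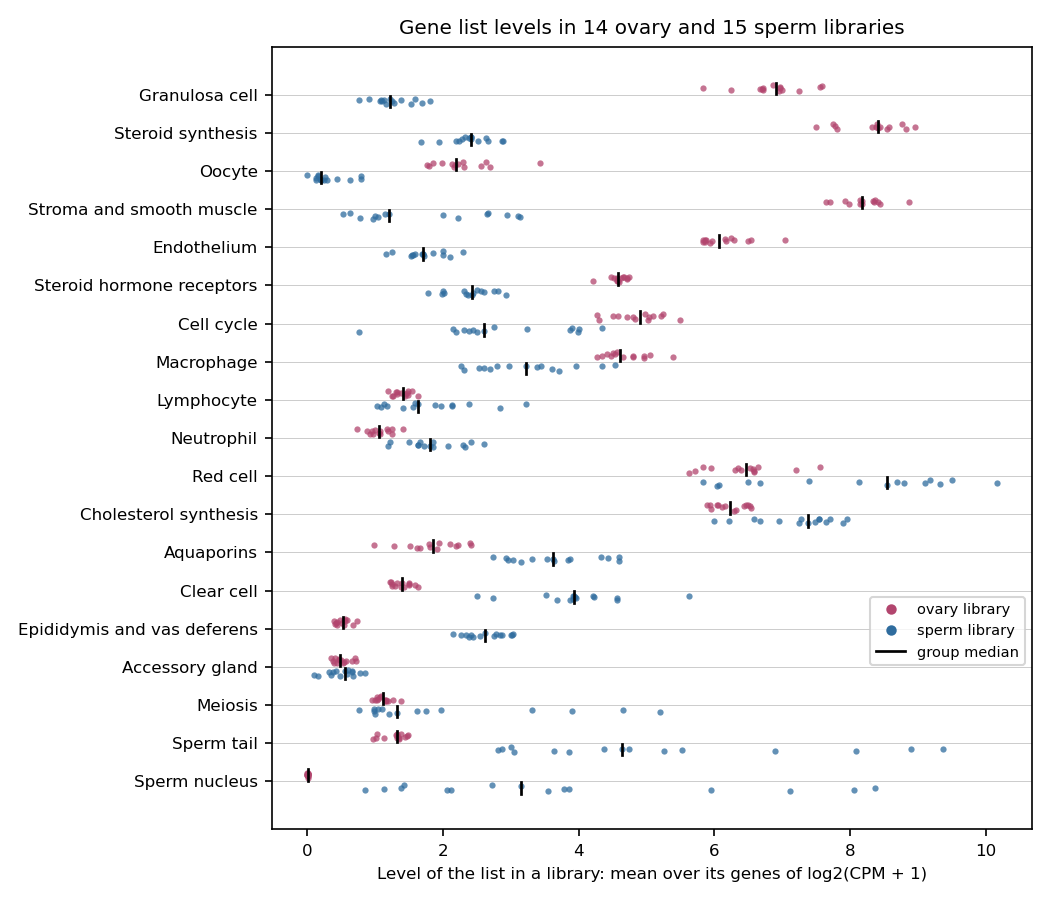
Mean of log2(CPM + 1) over the genes of 19 lists (x axis) in each of 14 ovary libraries (pink points) and 15 sperm libraries (blue points), with black bars at the group medians. The granulosa list lies between 5.84 and 7.58 in ovary and between 0.76 and 1.81 in sperm, while the sperm nucleus list spreads from 0.86 to 8.37 over the sperm libraries.

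More genes differed between ovary and sperm than not. Of 19647 genes tested with edgeR's quasi-likelihood test, 9991 (50.9%) were called at a Benjamini-Hochberg adjusted p below 0.05 and a log2 fold change of at least 1 in size. Of these, 5232 (26.6% of those tested) were higher in ovary and 4759 (24.2%) were higher in sperm. Calls in which no library of one group crossed into the range of the other numbered 3260 higher in ovary (16.6%) and 1017 higher in sperm (5.18%). The list counts below are to be read beside these shares of all genes tested. The median log2 fold change over all genes was 0.04. The split between the directions depended on how the counts were scaled, filtered and tested: 52.4% of called genes were higher in ovary in this fit, 65.6% with library totals alone, 63.3% with limma voom and sample quality weights, and 39.7% with no low-count filter. Without sperm libraries 7, 16 and 17 the calls numbered 10111, 5418 of them higher in ovary. The low-count filter asks for expression in about as many libraries as the smaller group holds, so germ cell genes high in few sperm libraries were often not tested, and they are counted below. A gene near 0 in one group could pass this filter only through the other group, which largely fixed the direction of its call. This holds for members near 0 in a group in every list below.

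Most granulosa cell genes were higher in every ovary than in any sperm library. Of 14 tested, 13 were called higher in ovary and 12 of these did not overlap between the groups, with a median log2 fold change of 7.52. Members near 0 in sperm could pass the filter only through ovary, which largely fixed their direction. Foxl2, the transcription factor that holds granulosa cell identity, ran from 76.2 CPM through a median of 143 to 221 in ovary, and from 0 through 0 to 0.303 in sperm. Its log2 fold change, ovary over sperm in all that follows, was 11.73 ± 0.56 (SE, edgeR adjusted p 3.75e-17). Inha, the alpha subunit of the inhibins, ran from 814 through 1596 to 3253 CPM in ovary and from 12.4 through 36.1 to 59.7 in sperm (log2 fold change 5.48 ± 0.25, edgeR adjusted p 1.07e-17). Every ovary lay above every sperm library for both genes.

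Inhba, which encodes a beta subunit, had a median of 617 CPM in ovary and 0.0445 in sperm (log2 fold change 11.70 ± 0.67, edgeR adjusted p 2.05e-15). Inhbb, the other beta subunit, had medians of 364 and 0.295 (7.75 ± 0.85, edgeR adjusted p 2.58e-09). Fst, which encodes the activin-binding protein follistatin, had medians of 172 and 0.254, and Amh, the anti-Müllerian hormone of growing follicles, 130 and 0.169. Their log2 fold changes were 8.33 ± 0.59 and 8.60 ± 0.52. The nuclear receptor Nr5a2 ran from 86.0 to 245 CPM in ovary and from 0 to 0.379 in sperm. The follicle-stimulating hormone receptor gene Fshr was lower, from 2.07 through 8.29 to 21.6 CPM in ovary and at most 0.596 in sperm (6.53 ± 0.85, edgeR adjusted p 6.02e-08). Kitlg, the ligand of the KIT receptor, was the member not called, at medians of 49.6 and 24.9 CPM (0.72 ± 0.22, edgeR adjusted p 0.00535), since its difference stayed under the fold threshold. Nr0b1 was called, but the groups overlapped.

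Steroid synthesis genes held some of the largest entries of the ovary. Of 14 tested, 12 were called higher in ovary and 1, Por, higher in sperm, with a median log2 fold change of 7.26. Summed over the list, ovary libraries held 12332 to 28899 CPM and sperm libraries 142 to 558. Scarb1, the receptor that takes up cholesterol from high-density lipoprotein, ran from 1614 through 2721 to 5367 CPM in ovary and from 0 through 10.7 to 53.1 in sperm (log2 fold change 7.29 ± 0.52, edgeR adjusted p 2.30e-13). Star, which carries cholesterol into mitochondria, ran from 550 through 1138 to 2447 in ovary and had a median of 0.174 in sperm (10.45 ± 0.82, edgeR adjusted p 2.22e-12). Neither gene overlapped between the groups.

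Cyp11a1 (chromosome 8, 67318665 to 67330196, GRCr8), the enzyme that cuts the cholesterol side chain, ran from 2038 through 2923 to 5945 CPM in ovary and from 0 through 2.66 to 4.98 in sperm. Its log2 fold change was 9.82 ± 0.38 (edgeR adjusted p 2.09e-19). Its electron donors followed: Fdxr had medians of 570 and 5.50 CPM (6.67 ± 0.47, edgeR adjusted p 1.94e-13), and Fdx1 of 884 and 23.9 (5.10 ± 0.18, edgeR adjusted p 2.39e-20). Hsd3b1, a 3-beta-hydroxysteroid dehydrogenase, was the third largest ovary entry with a median of 6742 CPM, against 2.28 in sperm (11.39 ± 0.45, edgeR adjusted p 5.61e-19). Hsd3b3 had medians of 2648 and 0.638. The Hsd3b genes are close copies and how reads shared between copies were counted is not given here, so the division between them is uncertain. Por, the electron donor of microsomal P450 enzymes, went the other way, with medians of 125 CPM in ovary and 295 in sperm (-1.25 ± 0.15, edgeR adjusted p 2.01e-08), with overlap between the groups.

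The later steps varied among the ovaries. Cyp17a1, which makes androgens, ran from 0.499 through 46.5 to 157 CPM in ovary and from 0 to 2.30 in sperm (7.23 ± 1.07, edgeR adjusted p 6.19e-07). It was under 2 CPM in ovary libraries 21, 22, 23 and 25, so that the groups overlapped. Cyp19a1, the aromatase that makes oestrogens, ran from 2.53 through 22.0 to 89.7 in ovary and reached 0.845 in sperm (7.30 ± 0.80, edgeR adjusted p 2.61e-09). Hsd17b1, which acts on oestrone, had medians of 148 and 0.541 CPM (7.96 ± 0.47, edgeR adjusted p 3.60e-15). Among receptors, Lhcgr, which binds luteinizing hormone, ran from 37.5 through 461 to 1061 CPM in ovary and reached 4.43 in sperm (8.37 ± 0.75, edgeR adjusted p 4.07e-11). The prolactin receptor gene Prlr differed less, with medians of 67.0 and 11.6 (2.37 ± 0.26, edgeR adjusted p 2.27e-09).

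Promoters of members are shown as sequence because the members of a list moved together. RefSeq (GRCr8) gave a promoter, 250 bases before to 50 after the start, for 10 steroid synthesis genes, 17 oocyte genes and 8 sperm nucleus genes. The first shown is that of Cyp11a1 at chr8:67318415-67318714, plus strand, with the nuclear receptor half-site AGGTCA in capitals, at positions -229 and -95 from the start.
Cyp11a1: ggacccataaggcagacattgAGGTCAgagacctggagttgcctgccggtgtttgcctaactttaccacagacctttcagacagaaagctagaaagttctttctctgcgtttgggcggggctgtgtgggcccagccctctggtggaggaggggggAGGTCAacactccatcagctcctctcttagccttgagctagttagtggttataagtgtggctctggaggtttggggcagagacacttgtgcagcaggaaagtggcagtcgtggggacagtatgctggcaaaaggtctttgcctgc
On either strand, AGGTCA was found in 5 of the 10 steroid synthesis promoters and in 16.2% of the 33469 promoters in the table. The 5 include that of Por, which was higher in sperm. AGGTCA was also in 5 of 10 granulosa promoters and in 4 of the 8 sperm nucleus promoters, so it was not particular to steroid synthesis genes. The longer element AAGGTCA, which contains AGGTCA and is bound by NR5A1, was in 0 of the 10 steroid synthesis promoters and in 4.6% of all. The half-site was searched after the promoters had been seen. Nr5a1 itself, the regulator of steroid synthesis genes, had medians of 189 CPM in ovary and 0.0839 in sperm (8.07 ± 0.80, edgeR adjusted p 3.54e-10). A match is a description of the letters and not a site.

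Some of the genes with the largest folds in ovary act in steroid and prostaglandin biology, and others do not. Akr1c3 (chromosome 17, 71020884 to 71037779), an aldo-keto reductase that acts on steroids and prostaglandins, ran from 425 to 5238 CPM in ovary with a mean of 1909 ± 1361 (SD, n = 14). It had 3 counts over all 15 sperm libraries, a ratio of means with a 95% exact counting interval of 129800 to 1839416 (edgeR adjusted p 3.91e-21). Ptgfr, the prostaglandin F receptor of luteal cells, averaged 472 ± 339 CPM in ovary and 0.0684 in sperm (12.42 ± 0.66, edgeR adjusted p 3.18e-16). Fabp6, a bile acid-binding protein best known from the ileum, averaged 74.8 ± 56.4 CPM in ovary and had 0 counts in sperm, so it was at least 14874-fold higher in ovary, against a floor of 3 counts over the group (edgeR adjusted p 3.63e-11). Mmp13, a collagenase, ran from 2.72 to 177 CPM in ovary and had 1 count in sperm. Intervals and floors cover counting error only.

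Oocyte genes were low in whole ovary, where oocytes are few, yet mostly higher than in sperm. Of 20 tested, 17 were called higher in ovary and 15 of those did not overlap, with a median log2 fold change of 4.57. Those near 0 in sperm could pass the filter only through ovary, so their direction was largely fixed beforehand. The list summed to between 68.7 and 328 CPM in ovary. Padi6, a protein of the egg's cytoplasmic lattices, ran from 13.4 through 23.2 to 66.3 CPM in ovary and from 0 through 0 to 0.120 in sperm (10.39 ± 0.57, edgeR adjusted p 8.24e-16). Zp3, the zona pellucida protein to which sperm bind, ran from 5.10 through 10.3 to 32.9 CPM, against at most 0.120 in sperm (9.53 ± 0.60, edgeR adjusted p 1.35e-14).

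The other coat genes stood in the same direction, with ovary medians of 18.9 CPM for Zp2, 2.62 for Zp1 and 2.03 for Zp4, each against a sperm median of 0. Bmp15, an oocyte growth factor, had 0 counts in sperm and ran from 0.995 to 4.21 CPM in ovary, at least 352-fold higher (edgeR adjusted p 9.18e-12). Gdf9, its close relative, ran from 5.52 through 10.3 to 30.5 CPM in ovary and up to 3.90 in sperm library 14 (3.66 ± 0.78, edgeR adjusted p 0.000129). Figla, a transcription factor that switches on the coat genes, was called at medians of 0.680 and 0, with overlap. Members not called were Nlrp14, which reached 82.9 CPM in sperm library 14 against at most 22.4 in ovary, Sohlh1 and Tle6. Sohlh1, a transcription factor of early germ cells of both sexes, differed by 1.01 ± 0.85 on the log2 scale (edgeR adjusted p 0.291) and was called higher in ovary when sperm library 7, its highest at 2.90 CPM, was left out.

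The Zp3 promoter at chr12:26334077-26334376, minus strand, is shown because E-boxes of this promoter bind basic helix-loop-helix factors such as FIGLA. Capitals mark E-boxes, CANNTG, at positions -189, -142, -66 and 38.
Zp3: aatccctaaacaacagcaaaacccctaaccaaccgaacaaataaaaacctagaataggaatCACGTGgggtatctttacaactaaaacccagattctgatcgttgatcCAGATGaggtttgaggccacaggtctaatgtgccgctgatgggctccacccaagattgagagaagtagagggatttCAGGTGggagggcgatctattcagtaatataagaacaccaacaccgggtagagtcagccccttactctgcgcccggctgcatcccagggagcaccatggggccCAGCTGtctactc
E-boxes were in 15 of the 17 oocyte promoters (88.2%) and in 72.1% of all promoters of this length, and all 8 sperm nucleus promoters held one too.

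Stromal, muscle and vessel genes followed the ovary. All 12 tested genes of stroma and smooth muscle were called higher in ovary and did not overlap. Col3a1, a fibrillar collagen, ran from 1209 through 2303 to 4580 CPM in ovary and from 1.86 through 14.8 to 562 in sperm, where library 15 was highest (5.11 ± 0.68, edgeR adjusted p 1.00e-07). Acta2, smooth muscle actin, had medians of 393 and 0.565 CPM (5.72 ± 0.89, edgeR adjusted p 1.49e-06). Of 10 endothelial genes, 9 were called higher in ovary, led by Cdh5, the cadherin of endothelial junctions, at medians of 114 and 0.0900 CPM (9.05 ± 0.66, edgeR adjusted p 3.66e-13). Vwf was not called, at 43.3 and 29.9 CPM (0.31 ± 0.19, edgeR adjusted p 0.149).

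Ciliated and secretory epithelium of the oviduct was also looked for, since it lies beside the ovary. Foxj1, the switch for motile cilia, ran from 0.401 in ovary library 18 through 44.4 to 75.8 CPM, and from 0 through 1.02 to 58.9 in sperm (1.77 ± 0.80, edgeR adjusted p 0.0494). Its call was lost in 23 of the 29 fits that left out 1 library, 10 of them without an ovary and 13 without a sperm library. Sox17 was higher in ovary, at medians of 40.1 and 0.0667 CPM. Pax8, a transcription factor of epithelia of both tracts, was higher in sperm, at 11.8 and 72.5 CPM (-2.91 ± 0.28, edgeR adjusted p 1.78e-10). What part oviduct tissue has in the ovary libraries was not tested.

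**Figure D2:**
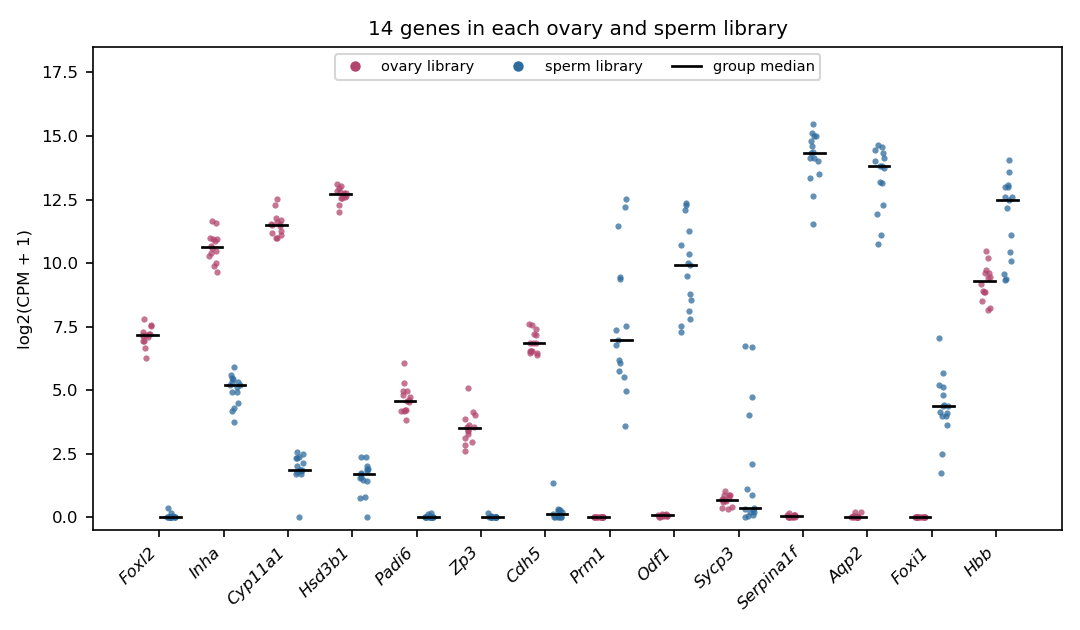
log2(CPM + 1) of 14 genes (x axis) in each ovary library (pink) and each sperm library (blue), with black bars at the group medians. Cyp11a1 lies between 2038 and 5945 CPM in ovary and reaches 4.98 in sperm, Prm1 is 0 in every ovary and runs from 11.2 to 5902 CPM in sperm, and Hbb overlaps between the groups.

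Genes of the sperm nucleus were all but absent from ovary. Of 9 in the table, 6 were tested and all 6 were called higher in sperm, 5 of them without overlap, with a median log2 fold change of -14.87. All 6 were near 0 in ovary and could pass the filter only through sperm, so the direction of these calls was largely fixed beforehand. Prm1 (chromosome 10, 5378740 to 5379235) had 0 counts in all 14 ovaries and ran from 11.2 through 125 to 5902 CPM in sperm, at least 264311-fold higher in sperm (edgeR adjusted p 1.99e-07). Prm2, the second protamine, ran from 0.845 through 20.0 to 773 CPM in sperm and reached 0.0939 in ovary (-13.13 ± 1.45, edgeR adjusted p 2.88e-09). Tnp1, the transition protein that precedes protamines on the DNA of spermatids, had 0 counts in ovary and ran from 0 through 10.5 to 5039 CPM in sperm, at least 177874-fold higher (edgeR adjusted p 4.48e-05). Tnp1 was 5039 CPM in library 14, 3462 in library 7, 1313 in library 3 and 630 in library 13, and at most 71.6 in the other 11. Its mean thus rests on those 4 libraries, and library 17, at 0, overlaps the ovaries.

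Tnp2, the second transition protein, had a median of 36.9 CPM in sperm and 0.0193 in ovary (-14.85 ± 1.64, edgeR adjusted p 3.02e-09). The spermatid linker histone gene Hils1 had a sperm median of 7.00 CPM and reached 1250 in library 14. H1f7, another spermatid linker histone, reached 606 CPM there but did not pass the filter, nor did H2bc1, and H1f6 had 0 counts in both groups.

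Promoters of Prm1 (chr10:5378490-5378789, plus strand) and Tnp1 (chr9:82044229-82044528, minus strand) are shown because spermatid genes of this kind are classical targets of CREM, which binds the cyclic AMP response element TGACGTCA. Capitals mark that element in Tnp1, at position -113, and in Prm1 the 8 letters TGACTTCA, which differ from it by 1 base, at position -64.
Prm1: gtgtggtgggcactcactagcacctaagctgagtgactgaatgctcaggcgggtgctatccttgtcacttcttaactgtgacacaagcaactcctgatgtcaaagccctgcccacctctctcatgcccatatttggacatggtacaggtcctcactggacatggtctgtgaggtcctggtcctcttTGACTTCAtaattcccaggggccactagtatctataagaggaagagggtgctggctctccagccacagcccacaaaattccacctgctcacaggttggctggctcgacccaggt
Tnp1: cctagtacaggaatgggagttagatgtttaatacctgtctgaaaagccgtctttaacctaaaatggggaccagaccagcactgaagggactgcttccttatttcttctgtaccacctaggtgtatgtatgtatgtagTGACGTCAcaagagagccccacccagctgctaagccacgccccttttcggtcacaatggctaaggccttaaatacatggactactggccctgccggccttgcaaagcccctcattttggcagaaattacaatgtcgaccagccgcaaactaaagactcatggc
The full element was in 1 of the 8 sperm nucleus promoters, that of Tnp1, and in 1.8% of all promoters. TGACTTCA was in 1 of the 8 and in 1.7% of all, and it was chosen after the Prm1 sequence had been seen. The Prm1 promoter also holds TGATGTCA, which differs from the element by 1 base too and is not marked. The share of promoters with any such variant was not computed, and it can be no smaller than 1.7%. TGACGT, the first 6 letters of the element, was in 3 of the 8 (Tnp1, H1f7 and H2bc1) and in 7.9% of all.

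Tail genes such as Odf1 and Smcp were found in all 15 sperm libraries. All 13 tested, of 15 in the table, were called higher in sperm, with a median log2 fold change of -6.79, and 7 did not overlap. Here too, members near 0 in ovary could pass the filter only through sperm. Odf1, a protein of the outer dense fibres, ran from 158 in library 11 through 967 to 5253 CPM in library 10, and from 0.0178 to 0.0924 in ovary (-14.96 ± 0.80, edgeR adjusted p 4.35e-16). Smcp, a protein of the mitochondrial sheath, ran from 106 through 551 to 4915 CPM in sperm and had 0 counts in ovary, at least 279848-fold higher (edgeR adjusted p 2.38e-10). Oaz3, an antizyme of spermatids, ran from 86.1 through 542 to 5170 CPM in sperm and up to 0.221 in ovary (-13.61 ± 0.89, edgeR adjusted p 2.87e-14). Akap4, the scaffold of the fibrous sheath, had a sperm median of 15.2 CPM and a maximum of 980 (-11.64 ± 1.38, edgeR adjusted p 1.20e-08).

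The libraries did not rank alike for all germ cell genes. Library 10 was the highest of all for Odf1 and Smcp, at 5253 and 4915 CPM, while its Tnp1 was 10.5 CPM and its Sycp3 0.150. Library 14 held 5004 CPM of Odf1 with 5039 of Tnp1 and 107 of Sycp3. Library 15 held 1684 CPM of Odf1 with 8.45 of Tnp1. Other members did not follow Odf1 and Smcp in library 10. Akap3 was 3.03 CPM and Akap4 15.2 there, both at their sperm medians, and Tekt4 was 0.870, while Tnp2 was 110, above its median of 36.9. These members were picked after their values were seen.

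Genes of the acrosome, fusion and motility were thinner. Of 16 acrosome and fusion genes, 8 were tested and all 8 were called higher in sperm, with a median log2 fold change of -5.04. Members near 0 in ovary could again pass the filter only through sperm, which largely fixed their direction. Acrbp, which binds the protease proacrosin, ran from 13.4 through 64.8 to 348 CPM in sperm and from 1.14 to 3.85 in ovary (-5.42 ± 0.45, edgeR adjusted p 6.53e-12). Izumo1, the sperm protein that binds the egg receptor JUNO, did not pass the filter: it had medians of 0.462 CPM in sperm and 0.0632 in ovary and reached 86.7 in library 14. With no low-count filter all 16 were called higher in sperm. Of 12 ion channel genes, 7 were tested, 6 were called higher in sperm and 1, the proton channel gene Hvcn1, higher in ovary, at medians of 2.71 and 0.343 CPM (2.66 ± 0.43, edgeR adjusted p 2.27e-06). Catsper1, the pore of the sperm calcium channel, was not tested and reached 18.1 CPM in library 14 with a median of 0.0231. Without library 14 the ion channel genes called higher in sperm numbered 4, and Catsperd (-1.37 ± 0.45, edgeR adjusted p 0.00778) was one of those lost. Under voom Catsperd turned to 0.12.

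Of 8 tested genes in the list of germ cell energy metabolism, which also holds transporters and a hexokinase used in other cells, 6 were called higher in sperm. Under voom with sample quality weights 3 were called. Pgk2, the spermatogenic phosphoglycerate kinase, ran from 5.65 through 35.6 to 565 CPM and had 0 counts in ovary, at least 32368-fold higher in sperm (edgeR adjusted p 9.21e-08). Gapdhs, the sperm form of glyceraldehyde-3-phosphate dehydrogenase, had medians of 39.2 CPM in sperm and 0.718 in ovary (-8.70 ± 1.01, edgeR adjusted p 7.79e-09). Gapdh, the common form, averaged 1196 ± 320 CPM (SD, n = 14) in ovary and 975 ± 494 (SD, n = 15) in sperm and was not called (0.14 ± 0.21, edgeR adjusted p 0.562).

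Meiotic genes were low in ovary and uneven in sperm. Of 20 genes of meiosis and the germ line, 17 were tested, 11 were called higher in sperm, 0 were called higher in ovary, and the median log2 fold change was -3.85. Sycp3, a protein of the synaptonemal complex that pairs chromosomes, ran from 0.249 through 0.631 to 1.07 CPM in ovary and from 0 through 0.296 to 107 in sperm (-5.07 ± 1.12, edgeR adjusted p 0.000197). The sperm median lay under that of ovary, and the highest libraries were 14, 7, 3 and 13, at 107, 104, 25.9 and 15.2 CPM. The other 11 sperm libraries held at most 3.25. Ddx4, the germ line RNA helicase also called vasa, ran from 0.582 to 2.91 CPM in ovary and from 0 through 3.93 to 228 in sperm (-5.10 ± 0.95, edgeR adjusted p 2.19e-05).

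Dazl, a germ line RNA-binding protein, was not called, at medians of 3.01 CPM in ovary and 0.0246 in sperm (-0.43 ± 1.02, edgeR adjusted p 0.712). Its highest sperm libraries were 7 and 14, at 24.9 and 23.4 CPM. Under voom and under DESeq2 the log2 fold change of Dazl turned toward ovary, with values given in the section on processing below. Spo11, which makes the meiotic breaks, was the member without overlap, from 2.58 through 6.45 to 19.3 CPM in sperm and up to 0.402 in ovary (-5.47 ± 0.38, edgeR adjusted p 1.35e-13). Genes of the piRNA pathway, which silences transposons in male germ cells, and of spermatocytes followed: 9 of 13 tested were called higher in sperm. Piwil1, a piRNA-binding protein, reached 259 CPM in library 14 and at most 3.01 in ovary (-5.28 ± 1.32, edgeR adjusted p 0.000743). Under voom with sample quality weights the log2 fold change turned to 0.02 for Sycp3 and 2.15 for Piwil1. That fit called 5 meiotic and 4 piRNA and spermatocyte genes higher in sperm. In edgeR no gene of these germ line lists was called higher in ovary.

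**Figure D3:**
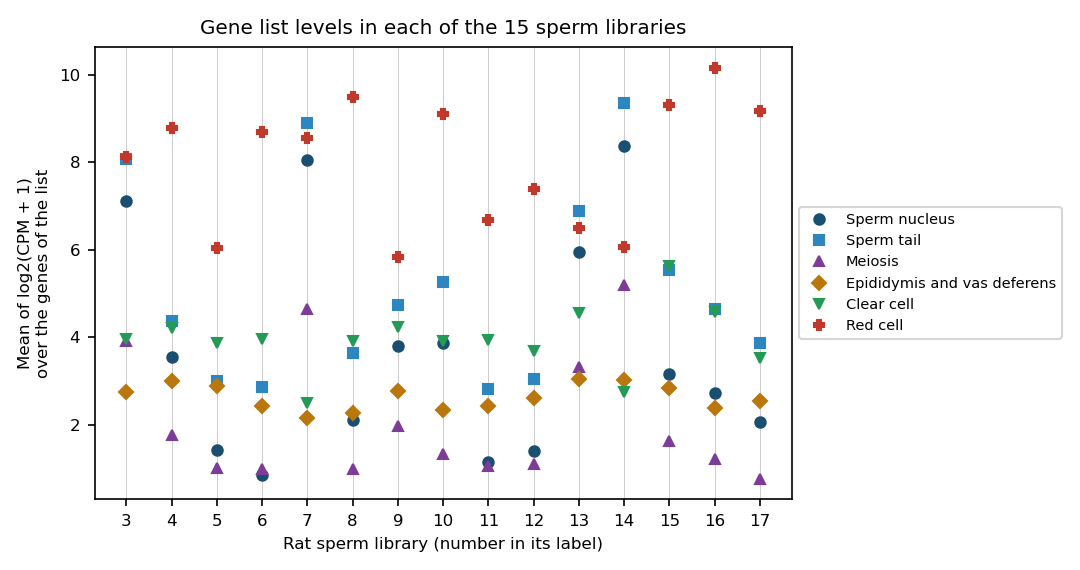
Mean of log2(CPM + 1) over the genes of 6 lists (y axis) in each of the 15 sperm libraries (x axis, by number; the numbers have no order). Sperm nucleus genes are highest in libraries 14, 7, 3 and 13, at 8.37, 8.05, 7.12 and 5.95. Meiotic genes reach 5.20 in library 14. The epididymis and vas deferens list lies between 2.15 and 3.04 in all by this mean of logs. Summed as CPM, that list runs more widely over the sperm libraries, from 8344 to 90050.

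Genes best known from the epithelium of the male tract were among the largest entries of the sperm samples. Of 19 genes of epididymis and vas deferens in the table, 10 were tested and 7 were called higher in sperm. Of the rest of those tested, 1 was called higher in ovary, without overlap, and 2 were not called. Serpina1f (chromosome 6, 128585697 to 128591902), a serpin of the epididymis, ran from 2988 in library 14 through 20626 to 46042 CPM in library 10, and up to 0.120 in ovary (-19.16 ± 0.61, edgeR adjusted p 3.04e-21). Its neighbour Serpina16 ran from 143 through 12756 to 55909 CPM in sperm and up to 0.214 in ovary (-18.03 ± 1.02, edgeR adjusted p 1.39e-15). Another serpin gene overlaps Serpina1f in RefSeq, which makes the value of Serpina1f uncertain. Ces5a, a carboxylesterase secreted in the epididymis, ran from 1776 through 9752 to 15610 CPM in sperm and up to 0.129 in ovary (-17.00 ± 0.45, edgeR adjusted p 2.61e-23). Every sperm library lay above every ovary for these genes.

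Defb9 and Defb10, members of the beta-defensin family of proteins that act on microbes, were among the largest folds in sperm. Defb9 ran from 4.89 through 255 to 813 CPM in sperm with 0 counts in ovary, at least 77011-fold higher (edgeR adjusted p 6.71e-10). Defb10 ran from 6.21 through 368 to 1393 CPM in sperm with 2 counts in ovary (edgeR adjusted p 2.48e-15). Defb21 and Defb22, the family members in the list, did not pass the filter and had sperm medians of 0.334 and 0.0280 CPM. Genes best known from the first segments of the epididymis were near 0 in sperm: Gpx5 reached 0.688 CPM, Lcn9 0.632, Lcn8 0.311 and Cst11 0.0181. Accessory gland genes summed over 11 members to between 0.910 and 23.3 CPM in sperm and between 10.7 and 158 in ovary. Of 3 tested, 2 were called higher in sperm. That count was 1 without sperm libraries 16 and 17. Svs4, a seminal vesicle protein, ran from 0.0650 through 4.04 to 13.6 CPM in sperm with 0 counts in ovary, at least 1413-fold higher in sperm (edgeR adjusted p 2.35e-09). Svs6 had a sperm median of 1.87 CPM and reached 0.0183 in ovary (-9.11 ± 0.62, edgeR adjusted p 7.02e-14). Svs5, also named after seminal vesicle secretion, was higher in ovary, from 10.4 through 27.9 to 157 CPM against at most 0.253 in sperm (9.31 ± 0.72, edgeR adjusted p 1.57e-12).

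Water channels differed in direction by member. Of 9 aquaporins tested, 5 were called higher in sperm and 2 higher in ovary, beside 24.2% and 26.6% of all genes tested. Aqp2 (chromosome 7, 132590286 to 132595321), the vasopressin-regulated channel of the kidney that is also made in the vas deferens, ran from 1734 through 14448 to 25939 CPM in sperm and up to 0.166 in ovary (-18.51 ± 0.71, edgeR adjusted p 2.09e-19). Aqp9, which also passes glycerol and other small solutes, had medians of 515 CPM in sperm and 9.14 in ovary (-5.79 ± 0.50, edgeR adjusted p 1.77e-11). Aqp1, the channel of vessels and red cells, was higher in ovary, at 62.8 and 6.20 CPM (3.00 ± 0.45, edgeR adjusted p 7.61e-07). Aqp7, a glycerol channel of spermatids, was called higher in sperm (-2.82 ± 1.07, edgeR adjusted p 0.0198), but not without library 14, where it was 492 CPM, and it turned to 1.38 under voom.

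Clear cells, the acid-secreting cells of the epididymis, were represented too. Of 7 genes, 6 were called higher in sperm. Foxi1, the switch for such cells, ran from 2.40 through 19.6 to 131 CPM in sperm with 0 counts in ovary, at least 7043-fold higher (edgeR adjusted p 9.02e-11). Atp6v1g3, a proton pump subunit, had medians of 22.5 and 0.00889 CPM (-10.07 ± 0.61, edgeR adjusted p 5.18e-15), and Atp6v1b1 of 16.2 and 0.258 (-6.82 ± 0.56, edgeR adjusted p 5.64e-12). Library 15 was the highest for all 3. Car12, a carbonic anhydrase, was not called, at 7.10 CPM in sperm and 17.6 in ovary.

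Most genes of cholesterol synthesis were higher in the sperm samples. Of 18 genes, 14 were called higher in sperm, 2 higher in ovary and 2 not called, with a median log2 fold change of -1.48. Idi1, which isomerizes the isoprenoid unit, had medians of 999 CPM in sperm and 102 in ovary (-3.35 ± 0.29, edgeR adjusted p 2.51e-11), and Fdps, which joins such units, of 818 and 126 (-2.70 ± 0.17, edgeR adjusted p 2.15e-14). Fdft1, the squalene synthase, had medians of 330 and 68.5 CPM (-2.38 ± 0.11, edgeR adjusted p 2.74e-17). Srebf2, the master regulator of the pathway, was higher in sperm too, at 313 and 115 CPM (-1.40 ± 0.14, edgeR adjusted p 3.14e-10).

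Dhcr7, a reductase of a last step of the pathway, went the other way. It ran from 290 through 397 to 485 CPM in ovary and from 7.02 through 37.4 to 60.9 in sperm (3.24 ± 0.21, edgeR adjusted p 1.91e-14), with no overlap. Mvk and Pmvk, early kinases, were not called. With library totals as the only scaling, which moves the median of all genes by 0.43 on the log2 scale, 9 of the 18 were called higher in sperm.

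**Figure D4:**
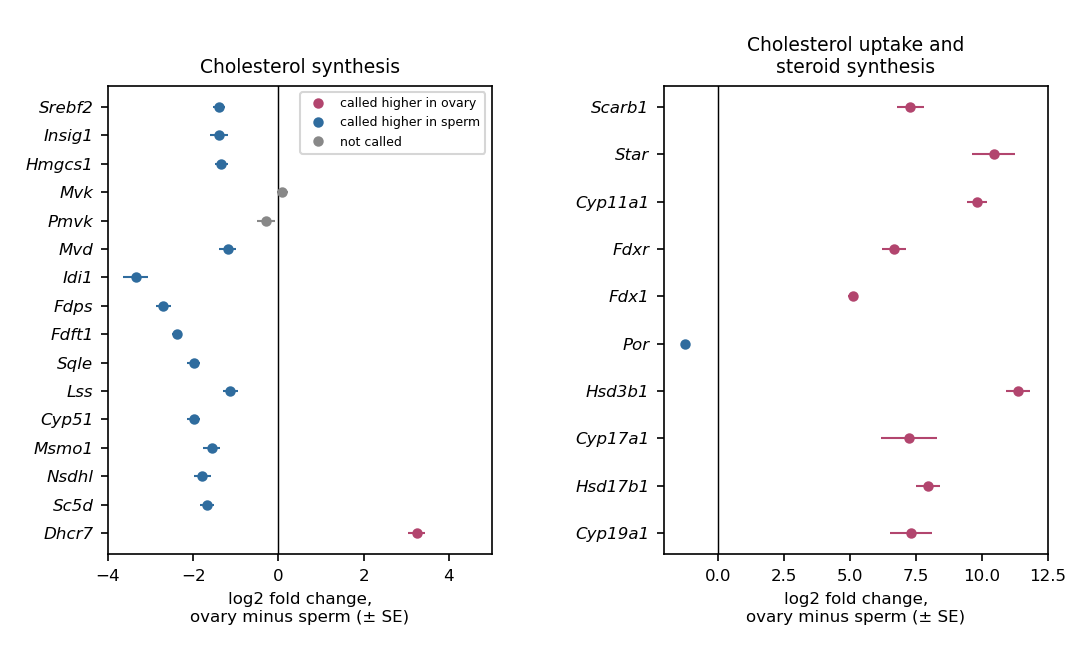
log2 fold change of ovary over sperm with its SE (x axis) for 16 genes of cholesterol synthesis in rough pathway order (left) and 10 genes of cholesterol uptake and steroid synthesis (right), pink where called higher in ovary, blue where called higher in sperm, grey where not called. Most synthesis genes lie left of 0, down to -3.35 for Idi1, and Dhcr7 lies right of it at 3.24, while most uptake and steroid genes lie between 5.10 and 11.39.

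Blood and immune genes moved with the groups in different ways. Of 8 red cell genes, 7 were called higher in sperm. Hbb, beta globin, ran from 640 through 5712 to 16995 CPM in sperm, with library 16 highest, and from 285 through 631 to 1433 in ovary (-3.37 ± 0.49, edgeR adjusted p 4.08e-07), with overlap. The red cell list summed to between 2796 and 58003 CPM in sperm and between 1837 and 7708 in ovary. The globin genes are close copies, and the division of reads between them is uncertain. What share of other results blood RNA has was not tested.

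Of 9 neutrophil genes tested, 5 were called higher in sperm and 1 higher in ovary, beside 24.2% and 26.6% of all genes tested. Ltf, lactoferrin, ran from 2.21 through 300 to 1439 CPM in sperm and from 0.100 through 3.06 to 5.49 in ovary (-7.95 ± 0.79, edgeR adjusted p 3.09e-10). S100a8 and S100a9, which encode calprotectin, were called higher in sperm too, at medians of 2.34 and 3.57 CPM there and 0.785 and 2.58 in ovary. The part of neutrophils in these values was not tested. Without sperm libraries 16 and 17, 3 of the list were called higher in sperm. Of 9 macrophage genes tested, 6 were called higher in ovary and 1 higher in sperm, beside 26.6% and 24.2% of all genes tested. The complement gene C1qa had medians of 84.7 and 24.7 CPM (1.46 ± 0.23, edgeR adjusted p 1.65e-06), and the mannose receptor gene Mrc1 of 51.3 and 0.909 (3.47 ± 0.70, edgeR adjusted p 6.65e-05). Aif1, a macrophage marker that spermatids also make, was higher in sperm, where it reached 586 CPM in library 14 (-2.47 ± 0.66, edgeR adjusted p 0.00137). Under voom its log2 fold change was 0.34.

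Of 10 lymphocyte genes, 6 were called higher in sperm and 1, Cd79a, higher in ovary, beside 24.2% and 26.6% of all genes tested. All were at low levels: the list summed to between 13.9 and 107 CPM in sperm and between 29.3 and 70.6 in ovary. Cell cycle genes were higher in ovary for 10 of 15 tested and higher in sperm for 0. Top2a, the topoisomerase of dividing cells, had medians of 75.7 and 7.21 CPM (2.26 ± 0.45, edgeR adjusted p 4.96e-05). Pcna, a clamp of replication and repair, was not called, at 92.1 and 76.5 CPM (-0.12 ± 0.16, edgeR adjusted p 0.517).

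Sertoli cell genes were looked for as a sign of testis tissue. Of 9 tested, 6 were called higher in ovary and 2 higher in sperm, beside 26.6% and 24.2% of all genes tested. Several are shared with granulosa cells. Gata4 had medians of 156 CPM in ovary and 0.210 in sperm (7.02 ± 0.75, edgeR adjusted p 1.45e-09). Dmrt1, which marks Sertoli and early germ cells of the testis, was not tested and reached 3.33 CPM in sperm library 14. Rhox5, a gene of Sertoli cells and epididymis, was higher in sperm, at 9.60 and 2.26 CPM (-2.50 ± 0.47, edgeR adjusted p 2.53e-05).

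Receptors for sex steroids were mostly higher in ovary. Of 7 tested, 5 were called higher there, and none of those 5 overlapped. Esr1, oestrogen receptor alpha, ran from 46.8 through 88.5 to 138 CPM in ovary and from 0 through 1.05 to 7.26 in sperm (5.49 ± 0.57, edgeR adjusted p 6.99e-10). Esr2, oestrogen receptor beta, had medians of 38.2 and 0.661 CPM (6.06 ± 0.47, edgeR adjusted p 1.23e-12). In brain the means of Esr1 were 3.09 CPM in females and 2.35 in males. Pgrmc1, which encodes a membrane progesterone-binding protein, was not called, at 375 and 408 CPM (-0.09 ± 0.19, edgeR adjusted p 0.673).

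The reproductive axis links hypothalamus, pituitary and gonad. Of 15 of its genes, 8 were tested. Of these, 4 were called higher in ovary and 3 higher in sperm, beside 26.6% and 24.2% of all genes tested. Gnrhr, the receptor for gonadotropin-releasing hormone, ran from 74.6 through 113 to 197 CPM in ovary and from 0 through 0 to 0.120 in sperm (12.40 ± 0.42, edgeR adjusted p 1.18e-20). Its means in brain were 0.0936 CPM in females and 0.0965 in males. Gnrh1, the hormone itself, was not tested and reached 0.272 CPM in ovary and 0.173 in sperm. Oxtr, the oxytocin receptor, ran from 1.88 through 16.8 to 110 CPM in ovary and up to 2.66 in sperm (5.96 ± 0.96, edgeR adjusted p 2.48e-06). Npy, neuropeptide Y, was higher in sperm, at medians of 3.98 and 1.15 CPM (-2.43 ± 0.47, edgeR adjusted p 3.92e-05), against brain means of 33.8 and 33.6.

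Neuronal genes were low in both reproductive samples. Of 9 tested, 6 were called higher in ovary and 0 higher in sperm. Map2, a protein of dendrites, had medians of 40.1 CPM in ovary and 0.294 in sperm (4.16 ± 0.76, edgeR adjusted p 1.84e-05), against brain means of 1174 in females and 1148 in males. Snap25, a protein of synaptic vesicle fusion, had medians of 0.883 and 0.0236 CPM (4.41 ± 0.64, edgeR adjusted p 4.81e-07), against 3357 and 3468 in brain. Uchl1, a ubiquitin hydrolase of neurons and germ cells, was not called, at 35.6 and 8.70 CPM, and it reached 82.7 in sperm library 7.

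Xist, Ddx3y and Eif2s3y separated the samples by the sex their labels give, while 3 placeholder entries placed on the Y chromosome were higher in ovary. Xist, the RNA that silences an X chromosome in females, ran from 288 through 373 to 514 CPM in ovary and from 0 through 0 to 0.391 in sperm (11.59 ± 0.54, edgeR adjusted p 1.48e-17). In brain its means were 784 CPM in females and 0.340 in males. Of 10 Y-linked genes in the table, 5 were tested and all 5 were called higher in sperm, 4 of them without overlap. All 5 were near 0 in ovary and could pass the filter only through sperm. Ddx3y had 0 counts in ovary and ran from 19.8 through 62.5 to 96.7 CPM in sperm, at least 15483-fold higher (edgeR adjusted p 8.09e-16), and its mean was 82.3 in male brain. Eif2s3y had 0 counts in ovary and ran from 38.7 through 163 to 286 CPM in sperm, at least 39124-fold higher (edgeR adjusted p 3.91e-15). Uba1y, a copy of a ubiquitin-activating enzyme gene, ran from 0 through 6.56 to 34.4 CPM in sperm, highest in library 14. It was 0 in ovary, so the groups overlapped, and its mean in male brain was 0.184. Of all 13 entries tested on the Y chromosome, 9 were called higher in sperm, 3 higher in ovary and 1 was not called. The 3 higher in ovary were the placeholders LOC134484302, LOC134484526 and LOC134484557, named here after their values were seen. LOC134484302 ran from 55.9 through 131 to 245 CPM in ovary and from 0 through 0.283 to 1.49 in sperm, with brain means of 0.279 in females and 0.286 in males. Females carry no Y chromosome, and where the reads of these entries come from was not tested.

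Between female and male brain 12 of 20667 genes were called by edgeR (0.0581%), and 7 of the 12 were Y-linked. Counts on the X chromosome were 3.60% ± 0.193 (SD, n = 14) of ovary totals and 2.56% ± 0.348 (SD, n = 15) of sperm totals. The difference had a two-sided permutation p of 2.00e-05, the smallest that 100000 resamples can give, and an adjusted p of 2.67e-05 over 4 such measures. Entries placed on the Y chromosome held 0.0151% ± 0.00610 (SD, n = 14) of ovary totals and 0.0360% ± 0.0168 (SD, n = 15) of sperm totals, with the same permutation p and adjusted p. The lowest X share, 1.63%, was in sperm library 14 and the next, 1.91%, in library 7. Of 674 X-linked genes tested, 39.0% were called higher in ovary and 19.1% higher in sperm, against 26.2% and 24.4% of 18953 autosomal genes. The median log2 fold change was 0.61 on the X and 0.02 on the autosomes.

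**Figure D5:**
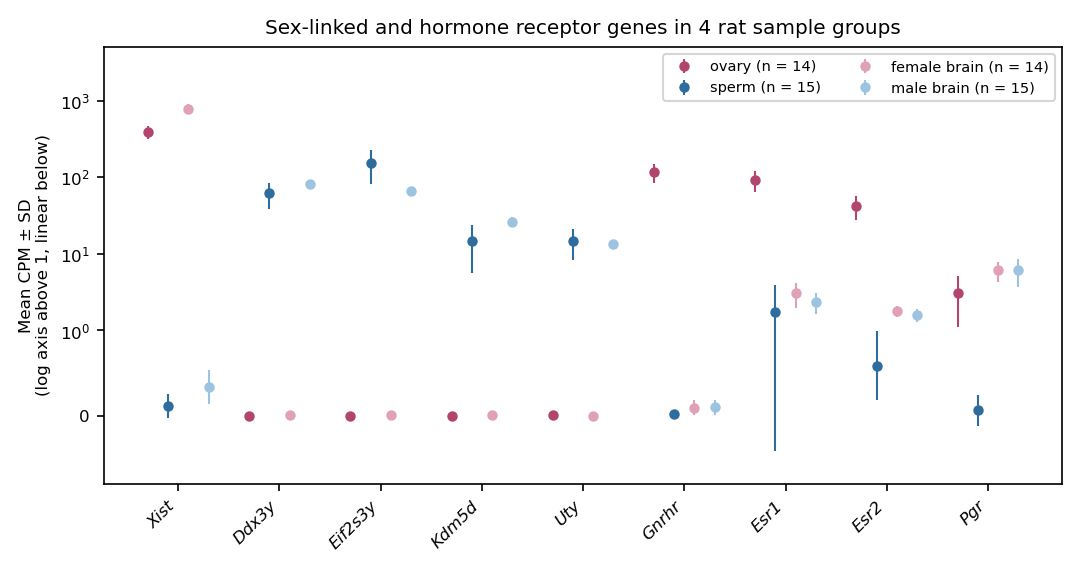
Mean CPM with SD (y axis, log above 1 and linear below) of 5 sex-linked and 4 receptor genes in ovary, sperm, female brain and male brain. Xist is high in both female groups, the Y-linked genes in both male groups, and Gnrhr averages 117 CPM in ovary against 0.0164 in sperm and under 0.1 in brain.

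The samples also shared much of their expression. Detection was set at 1 CPM or more in no fewer than 80% of the libraries of a group. By this rule 14708 genes were detected in ovary and 12862 in sperm, and 11970 in both, which is 81.4% of the ovary genes and 93.1% of the sperm genes. Ovary alone held 2738 and sperm alone 892. Of the shared genes, 11433 were also detected in brain and 537 were not. Among the latter were Slpi, a protease inhibitor of mucous epithelia, at means of 121 CPM in ovary and 214 in sperm against 0.116 in brain, and Krt19, an epithelial keratin, at 80.2 and 704 against 1.34. Ptges, a prostaglandin E synthase, was in this set at 38.1 and 5142 CPM.

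Genes of high level in both groups that were not called included Actb, Hspa8, Atp5f1b and Psap. Actb, beta actin, averaged 2587 ± 227 CPM in ovary and 2023 ± 981 in sperm (0.21 ± 0.17, edgeR adjusted p 0.278). Hspa8, a heat shock chaperone, averaged 1430 ± 193 and 1224 ± 533 (0.07 ± 0.17, edgeR adjusted p 0.721). The sperm SDs were larger than the ovary SDs for both. Counts were also more concentrated in sperm: the 10 largest entries held 13.0% ± 3.32 (SD, n = 15) of totals, against 5.31% ± 0.601 (SD, n = 14) in ovary (two-sided permutation p 2.00e-05, adjusted p 2.67e-05). With ribosomal RNA entries in the totals the difference went from -7.69 to -4.02 percentage points and missed the threshold (permutation p 0.0806). The placeholder LOC120102105, which overlaps a ribosomal RNA entry, is among the largest sperm entries and was not left out of the totals. Its part in the difference was not tested. The number of genes at 1 CPM or more averaged 15606 ± 195 in ovary and 15242 ± 2332 in sperm (permutation p 0.571), a difference of 365 that was -15.4 without sperm libraries 16 and 17, and in sperm it ran from 12490 in library 17 to 19778 in library 14.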

How the data were processed

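Gene-level read counts of rat ovary and rat sperm, and of rat brain beside them, were analysed as deposited by the authors: raw whole-number counts for each gene and library. Per the labels, RNA was prepared with a stranded mRNA kit. Per the design text and the submitters' processing notes, reads were trimmed with Trimmomatic 0.39, aligned with STAR 2.7.5a and counted with Rsubread 2.20.0. Strand use and the treatment of multi-mapping reads in that step are not given here, so close copies and overlapping genes are uncertain.

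Here, 5 ribosomal RNA entries (Rn45s, Rn28s, Rn18s, LOC120093067, LOC120099695) were left out of totals and tests. Counts were scaled by TMM, filtered with filterByExpr and tested with edgeR 4.0.16 (quasi-likelihood test, R 4.3.3), with Benjamini-Hochberg adjustment over all genes tested. Genes were called where the adjusted p was under 0.05 and the log2 fold change was 1 or more in size. Fitted folds of genes near 0 depend on the prior count of 0.125, so genes at 0 in a group are given as bounds against 3 counts over the group. The design has no pairing, and ovary and sperm come from different animals. Library-wide measures were compared by a permutation test with 100000 resamples. Alternatives were DESeq2 1.42.0, limma 3.58.1 (voom with quality weights), other scalings, no filter and libraries left out. The pipeline was run on simulated counts in which few genes changed, unlike the data here. That run cannot check the scaling or the split between directions.

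Named genes were members of 29 gene lists, the 10 called genes with the largest folds in each direction at 50 CPM or more without overlap, the 10 largest entries of each group, and 10 highly expressed genes with a log2 fold change under 0.5. Members and lists were chosen with earlier results of these data known. Of 357 list genes, 344 were in the table of 38675. Positions and promoters come from RefSeq (GRCr8), where 38599 symbols matched. Values of some members are not reported here. Promoters were shown for high members of 3 lists.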

Additional observations from a re-analysis of the deposited data

How the results depend on the processing

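The number of genes called, 9991, lay between 9758 and 10039 when each library was left out in turn, with 4964 to 5354 higher in ovary and 4424 to 4811 higher in sperm. It moved to 19480 with no low-count filter and to 16505 with DESeq2, of 35005 genes tested. Calls higher in sperm moved to 11756 and 9305. Female against male brain moved from 12 to 19 and 45. Members called higher in sperm moved with no filter and with DESeq2 to 16 and 15 (acrosome and fusion), 11 and 11 (ion channels), 12 and 12 (epididymis and vas deferens), 5 and 5 (accessory gland) and 10 and 8 (Y-linked); more genes are tested there. With DESeq2, 10 neuronal genes were called higher in ovary. With voom, members called higher in sperm moved to 3 (energy), 5 (meiosis), 4 (piRNA and spermatocyte) and 2 (neutrophil). With library totals alone they moved to 9 (cholesterol synthesis) and 3 (neutrophil), and without sperm libraries 16 and 17 to 3 (neutrophil) and 1 (accessory gland). The cause of the moves under voom and library totals was not tested. The difference in genes at 1 CPM changed sign without libraries 16 and 17, from 365 to -15.4. The difference in the share of the 10 largest entries, -7.69 percentage points, was -4.02 with ribosomal RNA entries in the totals and then missed the threshold. Among named genes, the log2 fold change turned under voom for Aif1 (0.34), Aqp7 (1.38), Atp5f1b (-0.01), Catsperd (0.12), Dazl (5.86), Hspa8 (-0.12), Mvk (-0.03), Nlrp14 (5.29), Pcna (0.15), Piwil1 (2.15), Psap (-0.15), Slpi (0.09), Sycp3 (0.02) and Tekt4 (0.42). With DESeq2 it turned for Dazl (2.40) and Nlrp14 (0.98). With library totals it turned for Pcna (0.29), Pgrmc1 (0.36) and Pmvk (0.15), and with no filter for Pcna (0.08) and Pgrmc1 (0.05). Without libraries 7, 16 and 17 it turned for Dazl (0.16), Hspa8 (-0.04) and Psap (-0.05), and without 16 and 17 for Psap (-0.01). With 1 library left out, Dazl ran from -0.68 to 0.37, Hspa8 from -0.01 to 0.12, Psap from -0.03 to 0.07, and Pcna reached -0.22. No paired analysis was possible because ovary and sperm come from different animals and share no replicate number. Leaving out mitochondrial genes was not run, since the table used here holds 0 of them. Leaving out libraries 7, 16 and 17 together was chosen after seeing the data. Sperm libraries 16 and 17 were the shallowest and held 24945 and 25616 genes at 0, so that a gene at 0 there may lie under what they could detect.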

Other observations

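Ovary libraries differed among themselves in genes of follicles and of luteal cells, and the sources used here give no cycle stage. The 4 ovary libraries with the lowest Cyp17a1, at 0.499 CPM in libraries 21 and 22, 1.69 in library 25 and 1.81 in library 23, also held the lowest Fabp6 of the 14, at 15.7, 19.2, 22.5 and 15.4 CPM. In the other 10 libraries Cyp17a1 ran from 18.1 to 157 CPM and Fabp6 from 44.9 to 220. Akr1c3 was highest in ovary libraries 24, 20 and 29, at 5238, 3672 and 3459 CPM. Mmp13 was highest in libraries 20, 19 and 24, at 177, 152 and 138 CPM, and lowest in library 21, at 2.72. These values were chosen after they had been seen and were not tested.

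Clu, which encodes clusterin, a secreted chaperone of sperm and tract epithelium, ran from 75.5 CPM in sperm library 15 to 18657 in library 12, while ovary libraries held 193 to 455. Sperm library 15, lowest for Clu, was highest for Foxi1, at 131 CPM.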
